A study of Mus musculus with 12 samples.

Results

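The interferon-stimulated genes and interferon-inducible GTPases are genes that a cell switches on when an interferon reaches it. A list of 33 of them was matched by gene symbol, or by an older synonym, to the transcript clusters of a mouse whole-transcript array, and the brightest transcript cluster of a gene over the 12 arrays was kept. Of the 33 members, 29 were measured, among 19938 named genes in all. Isg15, Ifi44, Gbp2 and Igtp had no transcript cluster carrying a single symbol and were not analysed here. The measured members were 3 cytosolic RNA sensors, 5 transcription factors, 12 antiviral effectors, 6 protein modifiers and other induced proteins, and 3 GTPases.

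The RNA came from CD8+CD28low regulatory T cells, CD8 T cells that carry little of the costimulatory receptor CD28, of C57Bl/6 mice. Wild-type (WT) donors had the genotype AIRE wt and knockout (KO) donors the genotype AIRE ko. Aire is a transcription factor best known for switching on tissue-restricted genes in the thymic epithelium, where developing T cells are tested for self-reactivity. Native cells were freshly isolated, and activated cells had been kept for 96 h with allogenic antigen-presenting cells (APC) and an antibody against CD3, the signalling part of the T cell receptor. The 4 groups, native WT, native KO, activated WT and activated KO, held 3 arrays each, which the titles call biological replicates. The sources used here give neither the age of the mice, nor the number of mice behind an array, nor how the Aire allele was made, nor the genotype of the APC. The p-values therefore measure the spread between these arrays. Activated cells differed from native cells by culture, by stimulus, by the APC and by experiment at once, and these cannot be told apart. In the descriptions native arrays carry experiment numbers 1, 3 and 5 and activated arrays 2, 4 and 6. The series asks how Aire-deficient cells of this subset differ from wild-type cells.

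Type I interferons signal through the receptor chains Ifnar1 and Ifnar2 to a complex that holds Stat2 and Irf9 and binds the interferon-stimulated response element (ISRE). Interferon gamma, a product of T cells and NK cells, signals through Ifngr1 and Ifngr2 and acts on promoters at the gamma-activated site (GAS). Both routes induce proteins that detect viral RNA, block its translation or degrade it, and GTPases that attack vacuoles holding intracellular microbes. In T cells a low tonic interferon signal keeps many of these genes at a measurable level, and Ifngr2 is known to be reduced after stimulation.

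The array values are on a log2 scale, and a gene was taken as at background on an array where its value did not exceed the 95th percentile of 1027 olfactory receptor genes, a family with no known role in T cells. That level lay between 6.12 and 6.41 on 10 arrays, at 6.72 on activated WT array 2 and at 7.31 on activated KO array 3. The interquartile range of all values was 2.45 and 2.19 on these last arrays, the narrowest of the 12. Between 24 and 28 of the 29 members lay above background on the 10 arrays, 20 on activated WT array 2 and 15 on activated KO array 3. Ifih1, Irf7, Ifit1, Oasl2 and Rtp4 were among the members at background on either of these last arrays, so the sizes of their activation differences use such values. The 7 T cell markers checked, among them Cd3e, Cd8a and Cd8b1, lay above background on all 12 arrays, and Cd4 on none. Aire lay between 5.55 and 5.92, at background on every array, so it does not check the genotype labels. In bulk RNA, fewer cells of a type and less RNA per cell cannot be told apart.

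The promoters of the members show which of them carry the letters of these sites. RefSeq windows of GRCm38.p6, from 250 bases before to 50 bases after the start of a gene, were held for 25 of the 33 members. The ISRE core searched for, a pair of GAAA blocks parted by any 2 bases, read on both strands, occurred in 15 of these 25 (60.0%), against 3.99% of 27025 genes with a window. The GAS core, TTC and GAA parted by any 3 bases and the same on both strands, occurred in 7 of 25 (28.0%), against 9.55%. The 2 motifs overlapped in 1 member, Bst2. A match describes letters, not binding. The stretches below were chosen because they belong to members that behaved differently on activation: Ifit1 and Ifit3, which fell in WT cells, Oas3, Gbp3 and Irgm1, which did not pass the test there, and Irf1 and Irf8, which moved in opposite directions. Each runs 5′ to 3′ on the strand of its gene, with ISRE or GAS cores in capitals and up to 15 bases on either side.
Ifit1, chr19:34640770-34640828, plus strand, ISRE cores: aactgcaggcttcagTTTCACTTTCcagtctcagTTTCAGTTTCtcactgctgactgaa
Ifit3, chr19:34583358-34583431, plus strand, ISRE cores: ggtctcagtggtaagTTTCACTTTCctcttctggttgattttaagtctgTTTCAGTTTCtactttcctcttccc
Oas3, chr5:120777710-120777749, minus strand, ISRE core: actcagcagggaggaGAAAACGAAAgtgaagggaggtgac
Gbp3, chr3:142559984-142560029, plus strand, ISRE cores: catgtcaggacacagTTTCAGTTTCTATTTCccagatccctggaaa
Irgm1, chr11:48871421-48871465, minus strand, ISRE cores: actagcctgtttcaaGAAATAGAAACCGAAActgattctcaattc
Irf1, chr11:53769909-53769947, plus strand, GAS core: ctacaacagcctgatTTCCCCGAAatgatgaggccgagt
Irf8, chr8:120736172-120736228, plus strand, GAS cores: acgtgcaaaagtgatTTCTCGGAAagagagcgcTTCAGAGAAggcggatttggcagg

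Activation moved the members apart from one another in WT cells. Irf8 rose 8.90-fold, beside 9.72% of all genes called higher, 9 members fell, among them Oas2, Ifit3, Ifit1 and Irf7, and 19 did not pass the test (limma, adjusted p under 0.05 by Benjamini-Hochberg over all 19938 genes). The 10 members called of 29 stand beside 20.6% of all genes called, and the 9 that fell beside 10.9% of all genes called lower. These shares include genes at background throughout. Among the 10545 genes above background on at least 3 arrays, 12 of 28 members were called, beside 40.0% of those genes. The median difference of the 29 members, activated minus native, was -0.48, against -0.02 over all genes, and 19 of 29 lay below 0. The activated arrays lay below all native arrays for 16 members, against 23.4% of all genes, and above them for 1, against 17.5%.

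In KO cells the same comparison called 5 members of 29, beside 20.1% of all genes. Irf8 rose 7.58-fold, beside 8.72% of all genes called higher, and Ifih1, Irf1, Ifit3 and Oas2 fell, beside 11.4% of all genes called lower. All 5 were among the 10 called in WT cells. Among the 10545 genes above background on at least 3 arrays, 7 of 28 members were called in KO cells, beside 39.0% of those genes. The median of the 29 members was -0.26, against 0.02 over all genes, with 20 of 29 below 0. It was -0.618 without activated KO array 1, -0.389 without native KO array 2 and -0.113 without activated KO array 3. The activated KO arrays lay below all native KO arrays for 5 members (17% of all genes) and above them for 1 (13.8%). The difference in response between the genotypes was tested for each member as an interaction and was called for none, as given further on.

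Markers of other cells moved with activation as well. Beside their counts stand 9.72% (WT) and 8.72% (KO) of all genes called higher and 10.9% and 11.4% called lower. Of 12 neutrophil markers 1 was called higher in each genotype and 0 lower in WT but 5 lower in KO cells, with median differences of -0.44 and -1.65. Of 5 NK cell markers 1 fell in WT and 2 in KO cells (medians -0.44 and -1.06), and of 4 plasmacytoid dendritic cell markers 1 and 3 (-0.30 and -0.70). Of 6 MHC class II genes 1 rose in WT and 3 fell in KO cells (-0.22 and -0.90), and of 13 macrophage and dendritic cell markers 0 changed in WT and 3 fell in KO cells (-0.04 and 0.00). Of 7 CD8 T cell markers 0 fell in WT and 2 in KO cells (-0.26 and -0.53), and of 7 B cell markers 1 fell in each (-0.01 and -0.03). Whether these counts differ between the genotypes, and their part in the differences of the members, was not tested.

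**Figure D1:**
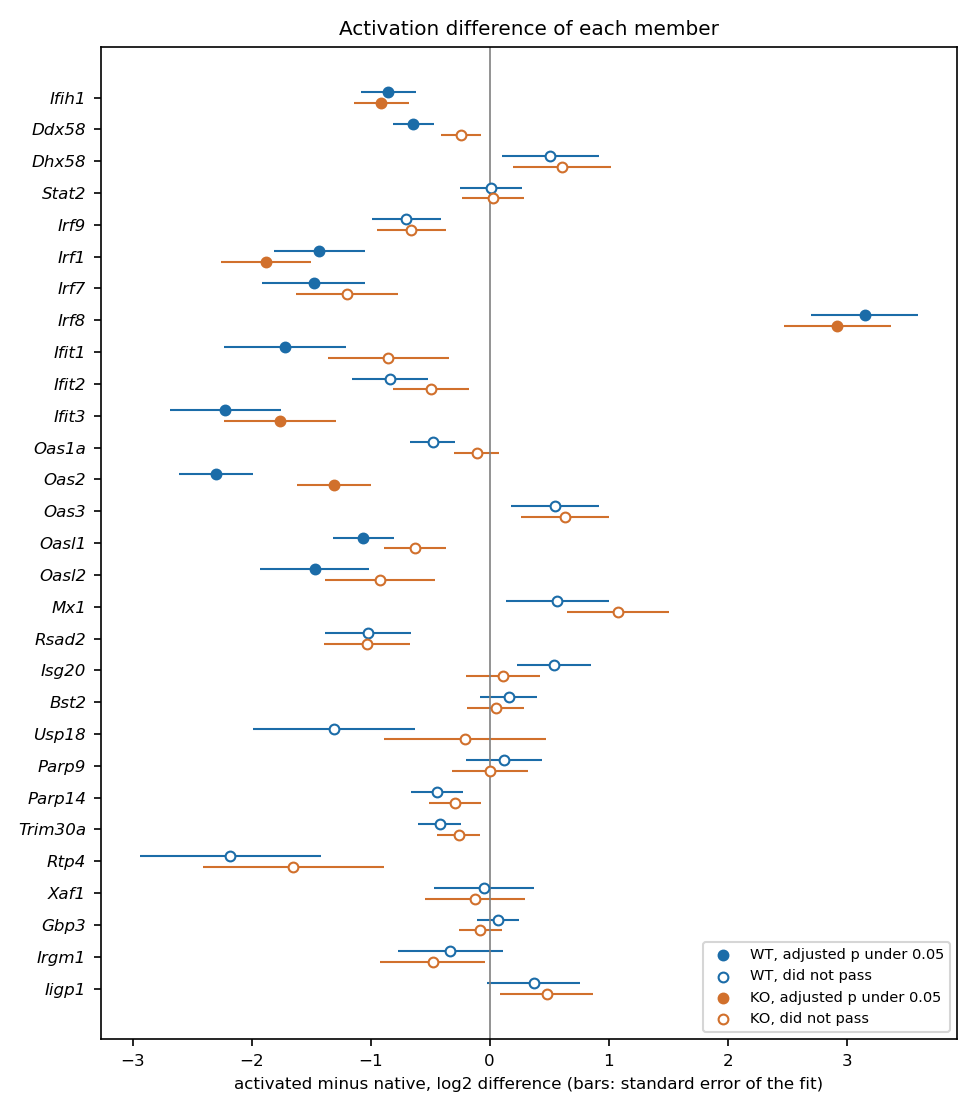
Difference between activated and native cells for each of the 29 members, in log2 units, with WT in blue and KO in orange. Points are means of 3 arrays per group, bars are standard errors of the limma fit, and filled points passed an adjusted p of 0.05: Irf8 stands alone on the right at 3.15 and 2.92, and Oas2, Ifit3 and Rtp4 reach furthest to the left in WT cells.

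Among the sensors of viral RNA in the cytosol, Ifih1, which encodes MDA5, fell in both genotypes. It lay at 8.14, 7.81 and 7.62 on native WT arrays 1, 2 and 3 and at 7.27, 6.64 and 7.10 on the activated WT arrays, an order of arrays kept throughout. Native KO arrays gave 8.13, 8.03 and 7.85 and activated KO arrays 7.60, 6.96 and 6.71. Every activated array thus lay below every native array of its genotype. The differences were -0.85 ± 0.23 (SE) in WT cells and -0.91 ± 0.23 in KO cells (limma, n = 3 arrays per group, adjusted p = 0.0205 and 0.0149). The WT call was lost without native WT array 1 (-0.71, adjusted p = 0.0919) or 2 (-0.88, 0.0555) or activated WT array 2 (-0.67, 0.0724), and the KO call without native KO array 1 (-0.85, 0.0595) or 2 (-0.90, 0.0504), by limma.

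Ddx58, which encodes RIG-I, fell in WT cells. It lay at 10.73, 10.40 and 10.52 on the native and at 10.12, 9.84 and 9.78 on the activated WT arrays, without overlap, a difference of -0.64 ± 0.17 (limma, n = 3, adjusted p = 0.0222). In KO cells it went from 10.73, 10.43 and 10.41 to 10.59, 10.35 and 9.92, groups that overlap, and differed by -0.24 ± 0.17 (limma, n = 3, adjusted p = 0.437). Without native WT array 1 or 3, or activated WT array 2 or 3, the WT value lay between -0.65 and -0.55 and did not pass (limma, adjusted p from 0.0571 to 0.0969). The third sensor, Dhx58 (LGP2), a regulator of the other two, did not pass in either genotype, at 0.51 ± 0.41 in WT and 0.61 ± 0.41 in KO cells. Its levels on the activated KO arrays were 8.90, 8.37 and 7.23, the last of them under the background of 7.31 on array 3. Without that array the KO difference was 1.08 and passed (limma, adjusted p = 0.0426).

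The transcription factors held the strongest rise. Irf8, a factor of lymphoid and myeloid differentiation that is also known from effector CD8 T cells, lay at 6.75, 6.74 and 6.46 on native WT and 7.47, 6.89 and 7.50 on native KO arrays, close to background in WT cells. On the activated arrays it lay at 10.08, 8.67 and 10.67 for WT and at 10.43, 9.40 and 10.80 for KO. All activated arrays lay above all native arrays, with array 2 the lowest of its group in both activated groups. The rise was 3.15 ± 0.45 in WT and 2.92 ± 0.45 in KO cells (limma, n = 3, adjusted p = 0.000451 and 0.000817), and it passed without any single array. Irf8 is also a gene of B cells, dendritic cells and macrophages, kinds of APC. On the activated arrays 1 or 2 of 13 macrophage and dendritic cell markers and 1 of 7 B cell markers lay above background, and Csf1r, Cd14, Adgre1, Ms4a1 and Cd79a were at background on all 6. The exceptions above background on all 12 arrays were Cd68, a lysosomal protein of macrophages, and Cd79b, a chain of the B cell receptor. Cd68 went from a native mean of 8.44 to 9.36 in WT cells and from 8.58 to 9.31 for KO, neither of which passed. Cd79b fell in both genotypes, from 9.31 to 8.78 in WT cells and from 9.27 to 8.35 for KO. The mean of the macrophage and dendritic cell list was 5.70 to 5.85 on activated and 5.70 to 6.24 on native arrays, and that of the B cell list 5.71 to 5.98 and 5.87 to 6.22. The mean of 6 MHC class II genes was 6.18 to 6.93 on activated arrays, with 0 to 3 of them above background, and 6.30 to 7.67 on native arrays, with 1 to 5 above. Among them H2-Aa, Cd74 and Ciita were at background on all activated arrays, and H2-DMa went from 9.19 to 8.87 in WT cells and from 9.38 to 8.32 for KO, neither of which passed. H2-Eb1 lay above background at least on activated WT arrays 1 and 3 and on activated KO array 2, and did not pass in WT cells. H2-Ab1 rose in WT cells (limma, n = 3, adjusted p = 0.015), from a native mean of 5.86 to 9.20, and did not pass in KO cells, where it lay at 7.64, 5.66 and 6.90 on native and 8.41, 9.95 and 5.64 on activated arrays. The part of these markers in the rise of Irf8 was not tested.

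Irf1, a factor that interferon gamma induces directly, moved the other way. Its native levels were 10.94, 11.04 and 11.03 for WT and 10.97, 11.31 and 11.16 for KO, and its activated levels 9.76, 10.13 and 8.82 for WT and 9.53, 9.93 and 8.34 for KO. The groups did not overlap, and array 3 was the lowest of both activated groups. The fall was -1.43 ± 0.38 in WT and -1.88 ± 0.38 in KO cells (limma, n = 3, adjusted p = 0.0177 and 0.00408). The KO fall passed without any single array. The WT fall did not pass without native WT array 2 (-1.42, adjusted p = 0.0568) or 3 (-1.42, 0.053) or activated WT array 3 (-1.06, 0.075), by limma. A second, dimmer transcript cluster of Irf1 differed by -0.87 in WT and -0.71 in KO cells.

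Irf7, the factor that amplifies type I interferon production, went from 9.07, 8.86 and 9.23 to 8.16, 7.52 and 7.05 in WT cells, without overlap. It fell by 1.48 ± 0.43 there (limma, n = 3, adjusted p = 0.03). In KO cells it went from 9.19, 8.84 and 8.92 to 8.87, 7.77 and 6.69, and array 1 lay within the native range. That difference of -1.20 ± 0.43 did not pass (limma, n = 3, adjusted p = 0.0733), but did without activated KO array 1 (-1.75, adjusted p = 0.00543). The WT call was lost without any native WT array or without activated WT array 2 or 3, at values from -1.58 to -1.21 (limma, adjusted p from 0.0623 to 0.123). Stat2 and Irf9, which sit together in the ISRE-binding complex, did not pass: Stat2 differed by 0.01 ± 0.26 and 0.03 ± 0.26, and Irf9 by -0.70 ± 0.29 and -0.66 ± 0.29, in WT and KO cells (limma, n = 3, adjusted p for Irf9 0.116 and 0.14). For Irf9 the KO difference passed without activated KO array 1 (-0.95, limma, adjusted p = 0.0365).

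**Figure D2:**
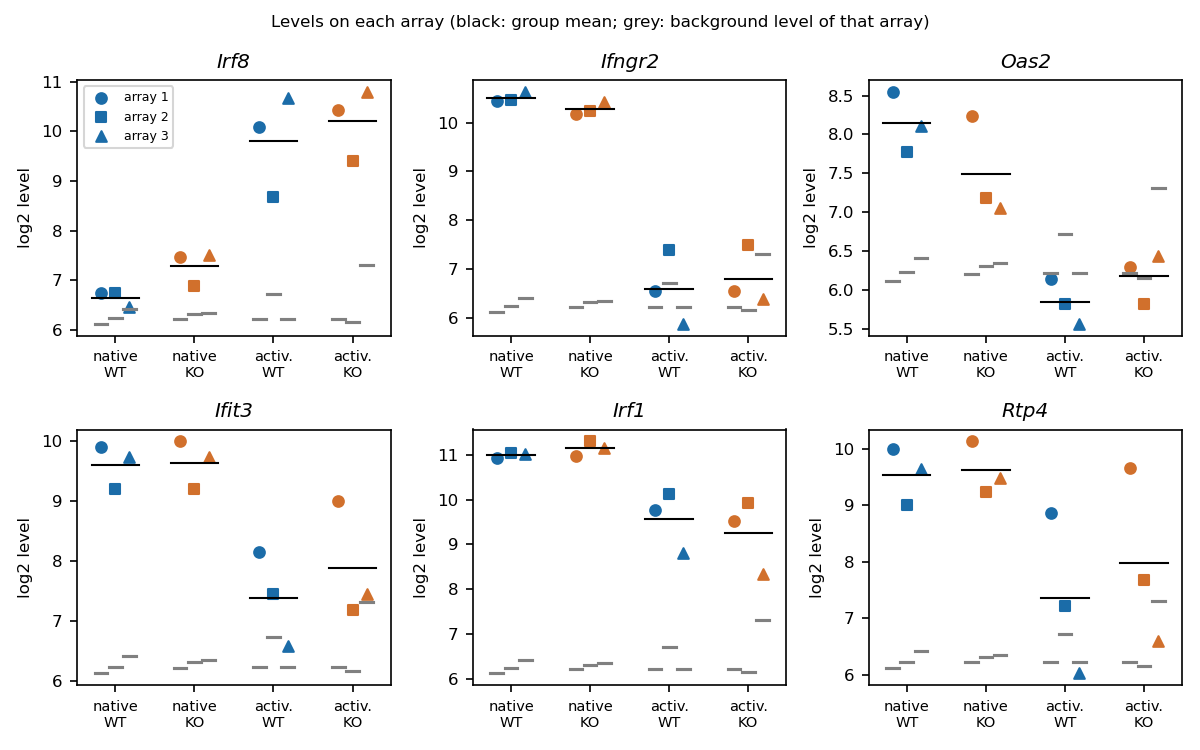
Log2 levels on each array of 5 members and of the receptor chain Ifngr2, with the array number as the symbol, WT in blue and KO in orange, group means as black lines and the background level of each array as a grey line. Irf8 is higher on all activated arrays, Ifngr2 falls from above 10 to near background, Oas2 reaches background in activated WT cells, and array 1 is the highest of both activated groups for Ifit3 and Rtp4.

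Among the antiviral effectors, 5 of 12 fell in WT cells and 2 of 12 in KO cells, beside 10.9% and 11.4% of all genes called lower, and none rose by the test in either. Oas2, one of the synthases whose 2-5A product activates the nuclease RNase L, lay at 8.55, 7.78 and 8.11 on native WT arrays. On the activated WT arrays it lay at 6.15, 5.82 and 5.57, all of them at background. It was thus at least 3.39-fold lower, a bound set by the background level (limma, n = 3, adjusted p = 0.000258, difference of the means -2.30 ± 0.31). In KO cells it went from 8.24, 7.19 and 7.06 to 6.30, 5.82 and 6.44, without overlap, where array 1 alone of the activated arrays lay above background. It fell by 1.31 ± 0.31 (limma, n = 3, adjusted p = 0.01), and both falls passed without any single array.

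The relatives of Oas2 did not all follow it. Oas3, another synthase, differed by 0.55 ± 0.37 in WT and 0.63 ± 0.37 in KO cells and did not pass. Oas1a was at background on all 12 arrays. Oasl1, a relative without synthase activity that restrains Irf7 translation, and Oasl2 fell in WT cells. Oasl1 went from 7.90, 7.33 and 7.71 to 6.90, 6.22 and 6.65 in WT cells (-1.06 ± 0.26, limma, n = 3, adjusted p = 0.0133), and from 7.59, 7.03 and 7.22 to 7.16, 6.14 and 6.64 in KO cells (-0.63 ± 0.26, adjusted p = 0.125). The WT arrays did not overlap and the KO arrays did. The WT call was lost without native WT array 1 (-0.93, limma, adjusted p = 0.0603), and a KO call was made without activated KO array 1 (-0.89, 0.0351). Oasl2 went from 8.51, 8.18 and 8.42 to 7.78, 6.34 and 6.56 in WT cells and from 8.62, 8.22 and 8.51 to 8.72, 6.80 and 7.06 in KO cells. Activated KO array 1 lay above all native KO arrays, and the other activated arrays of both genotypes lay below the native ones. The WT difference was -1.47 ± 0.46 and the KO difference -0.92 ± 0.46 (limma, n = 3, adjusted p = 0.0399 and 0.209). Without any one WT array other than activated array 1 the WT call was lost (-1.57 to -1.20, adjusted p from 0.0795 to 0.135), and without activated KO array 1 the KO difference was -1.52 (0.0123), by limma.

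The Ifit genes encode proteins that bind viral RNA and hinder its translation. Ifit3 fell in both genotypes, from 9.89, 9.19 and 9.72 to 8.14, 7.44 and 6.57 in WT cells, and from 9.99, 9.19 and 9.72 to 9.0, 7.17 and 7.45 for KO. The groups did not overlap, and array 1 was the highest of each of the 4 groups. The differences were -2.22 ± 0.47 and -1.76 ± 0.47 (limma, n = 3, adjusted p = 0.00572 and 0.0208). The WT fall passed without any single array, whereas the KO fall did not pass without native KO array 1 or 3 or activated KO array 2 or 3 (-1.71 to -1.41, limma, adjusted p from 0.0511 to 0.0817).

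Ifit1 went from 9.04, 8.11 and 8.60 to 7.58, 6.66 and 6.36 in WT cells and fell by 1.72 ± 0.51 (limma, n = 3, adjusted p = 0.0336). The WT groups did not overlap. In KO cells it went from 9.18, 7.90 and 8.03 to 8.73, 6.98 and 6.84, a difference of -0.85 ± 0.51 that did not pass (limma, n = 3, adjusted p = 0.323). Activated KO array 1 lay within the native range, and without it the difference was -1.46 (limma, adjusted p = 0.0413). The WT call was lost without native WT array 1 or 3 or activated WT array 2 or 3 (-1.71 to -1.46, limma, adjusted p from 0.0854 to 0.129). Ifit2 did not pass, at -0.84 ± 0.32 in WT and -0.49 ± 0.32 in KO cells.

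The remaining effectors did not pass the test. Rsad2 (viperin) went from 7.64, 6.38 and 6.65 to 6.16, 5.70 and 5.74 in WT cells, and from 7.76, 7.11 and 7.05 to 7.02, 6.08 and 5.74 for KO, and the activated WT arrays were at background. Its differences of -1.02 ± 0.36 and -1.03 ± 0.36 had adjusted p of 0.0703 and 0.07 (limma, n = 3), and without activated KO array 1 the latter was -1.40 (0.0177). Mx1, a GTPase that blocks influenza virus in mice with an intact gene, differed by 0.57 ± 0.43 and 1.08 ± 0.43 (limma, n = 3, adjusted p = 0.463 and 0.111). Isg20, an RNA exonuclease, differed by 0.54 ± 0.31 and 0.11 ± 0.31, and Bst2 (tetherin), which holds budding virions at the cell surface, by 0.16 ± 0.24 and 0.05 ± 0.24.

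Activated KO array 3 and activated WT array 2, which stood apart in their background, bore on which members passed. Without both, 14 members were called in WT cells, 4 of them higher, and 7 in KO cells, 4 of them higher, beside 32.6% and 29.1% of all genes called in that fit. The additional KO calls were Dhx58 at 1.08, Mx1 at 1.45 and Oas3 at 1.13 (limma, adjusted p = 0.0102, 0.0143 and 0.0022), and Ifit3 no longer passed (-1.55, adjusted p = 0.0501). The additional higher calls in WT cells were Dhx58 at 0.85, Isg20 at 0.91 and Oas3 at 0.74 (limma, adjusted p = 0.0295, 0.00936 and 0.0207). In WT cells Ifit2 and Irf9 were also called lower, at -0.85 and -0.75, and Oasl2 no longer passed (-1.20, adjusted p = 0.078).

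Of the protein modifiers and other induced proteins, 0 of 6 passed in either genotype, beside 20.6% (WT) and 20.1% (KO) of all genes called. Usp18, the protease that removes ISG15 from proteins and dampens signalling at Ifnar2, lay at 9.24, 8.63 and 9.11 on native WT and 8.77, 6.23 and 8.05 on activated WT arrays, and at 8.88, 7.96 and 8.24 on native KO and 9.63, 6.86 and 7.95 on activated KO arrays. Its activated arrays spread over more than 2 log2 units in both genotypes, with array 2 the lowest and array 1 the highest. The differences were -1.31 ± 0.68 and -0.21 ± 0.68 (limma, n = 3, adjusted p = 0.233 and 0.892). Rtp4, an interferon-induced receptor transporter protein, lay at 10.00, 9.0 and 9.64 on native WT, 10.14, 9.23 and 9.49 on native KO, 8.86, 7.21 and 6.02 on activated WT and 9.66, 7.67 and 6.60 on activated KO arrays. It had the widest range of the 29 members within both activated groups, 2.84 and 3.06. Array 3 lay under the background of 6.22 in activated WT cells and of 7.31 in activated KO cells, so these ranges and the differences below use values at background. Its differences of -2.18 ± 0.76 and -1.65 ± 0.76 did not pass (limma, n = 3, adjusted p = 0.0637 and 0.17), but did without array 1 of the activated WT group (-2.93, adjusted p = 0.0195) or of the activated KO group (-2.49, 0.0275). Parp9, Parp14, Trim30a and Xaf1 differed by -0.44 to 0.12 in WT and -0.29 to 0.00 in KO cells.

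The GTPases did not pass either, 0 of 3 in both genotypes, beside 20.6% (WT) and 20.1% (KO) of all genes called. With so few genes, a count of 0 says little at these shares. Gbp3, a guanylate-binding protein, differed by 0.07 ± 0.18 in WT and -0.08 ± 0.18 in KO cells, with 95% intervals from -0.32 to 0.47 and from -0.48 to 0.31. Irgm1, which regulates the other immunity-related GTPases, differed by -0.33 ± 0.44 and -0.48 ± 0.44, and Iigp1, an effector of that family, by 0.37 ± 0.39 and 0.48 ± 0.39. Iigp1 lay between 5.90 and 7.79 on the activated WT arrays, so that its spread exceeded its difference.

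The promoter letters did not line up with these calls in a simple way. Among the 8 members that were called lower in either genotype and had a window, 4 held an ISRE core (50%) and 1 a GAS core. Among the 13 other measured members with a window, 8 held an ISRE core (61.5%) and 5 a GAS core.

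The other genes of the pathway were counted from lists of ligands, receptors, brakes, sensors and further targets. All their counts stand beside 20.6% of all genes called in WT and 20.1% in KO cells. Of all genes, 9.72% and 8.72% were called higher and 10.9% and 11.4% lower. Of 8 measured ligands 0 passed in either genotype, and Ifnb1, Ifna2, Ifna4, Ifnk and Ifne were at background on all 12 arrays. The other 3, Ifng, Ifna5 and Ifnl2, lay above background on every array. Ifng, the interferon that T cells make, lay at 8.80, 9.77 and 9.28 on native WT, 9.28, 10.60 and 10.00 on native KO, 9.26, 6.87 and 9.75 on activated WT and 9.28, 6.86 and 11.16 on activated KO arrays. Array 2 was the lowest of both activated groups by more than 2 log2 units, and Ifng did not pass on activation (limma, n = 3, adjusted p = 0.746 in WT and 0.642 in KO cells).

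Of 8 measured receptors and kinases, 3 fell in WT and 2 in KO cells, beside 10.9% and 11.4% of all genes called lower. Ifngr2, the signalling chain of the interferon gamma receptor, lay at 10.44, 10.46 and 10.64 on native WT and 10.19, 10.25 and 10.43 on native KO arrays. On the activated arrays it lay at 6.54, 7.38 and 5.87 for WT and at 6.54, 7.48 and 6.38 for KO. It was 15.1-fold lower in WT and 11.2-fold lower in KO cells (limma, n = 3, differences -3.92 ± 0.34 and -3.49 ± 0.34, adjusted p = 9.77e-06 and 2.66e-05). Array 3 of both activated groups lay at background, and both sizes use those values. Jak1, a kinase of both receptors, fell by 0.75 and 0.79, and Jak2 fell by 0.71 in WT cells and differed by -0.55 in KO cells (limma, adjusted p = 0.0678). Ifngr1, Ifnar1 and Ifnar2 did not pass.

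Of 6 brakes on the signal, 1 rose and 1 fell in each genotype: Socs1, an inhibitor of Jak kinases, rose by 0.68 in WT and 0.59 in KO cells, and Socs3, an inhibitor of cytokine receptors, fell by 1.84 and 2.20. Of 13 genes that sense nucleic acids or relay that signal, 2 rose and 2 fell in each genotype. Irf5, a factor downstream of Toll-like receptors, rose at least 2.60-fold in WT and 2.66-fold in KO cells from native levels at background, and Sting1, the adaptor for cytosolic DNA, rose by 0.57 and 0.46. Ikbke, a kinase of Irf3 and Irf7, fell by 2.00 and 2.32, and Tlr7, a sensor of single-stranded RNA, fell in both. Its activated levels were at background on arrays 2 and 3 of each genotype, so no size is given. Of 23 further interferon-stimulated genes, 0 rose and 4 fell in WT cells, and 2 rose and 3 fell in KO cells. Gbp9 (-1.73 and -1.76), Sp100 (-0.87 and -0.84) and Zbp1 (-1.05 and -1.09) fell in both, and Aim2 rose in KO cells (0.59; in WT cells 0.44, which did not pass). Of 8 antigen presentation genes, the immunoproteasome subunits Psmb8 and Psmb9 rose in WT cells (0.82 and 0.81; in KO cells 0.42 and 0.43, which did not pass), and Tapbp fell in both (-0.42 and -0.39).

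Within each group the members moved together from array to array. Array 1 was the highest of the 3 for 26 of 29 members in native WT cells (89.7%, against 39.1% of all genes), 25 in native KO (86.2%, against 33.0%), 22 in activated WT (75.9%, against 28.1%) and 26 in activated KO cells (89.7%, against 23.1%). In the activated groups the largest shares of all genes were highest on the arrays with the raised background, 40.8% on WT array 2 and 48.3% on KO array 3. The median level of the 29 members was 8.66, 8.18 and 8.42 on the native WT arrays, 8.73, 8.03 and 8.24 on the native KO arrays, 8.56, 7.44 and 7.86 on the activated WT arrays and 8.90, 7.72 and 7.42 on the activated KO arrays. Array 1 thus lay above the other arrays of its group throughout, by more on activated arrays. The median range of a member over the 3 arrays of a group was 0.51, 0.56, 0.90 and 1.38 in these 4 groups, against 0.19, 0.23, 0.30 and 0.46 over all genes. These are descriptions of 12 arrays, and no test was made of them. Array 1 of the KO groups also differed from the others in Xist, the RNA of the inactive X chromosome, at 5.26 (native) and 4.98 (activated) against 9.34 to 11.47 on the other 10 arrays. Xist on array 1 of the WT groups was 10.7 and 10.8. Whether the sex of the mice had a part in the level of the members was not tested.

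**Figure D3:**
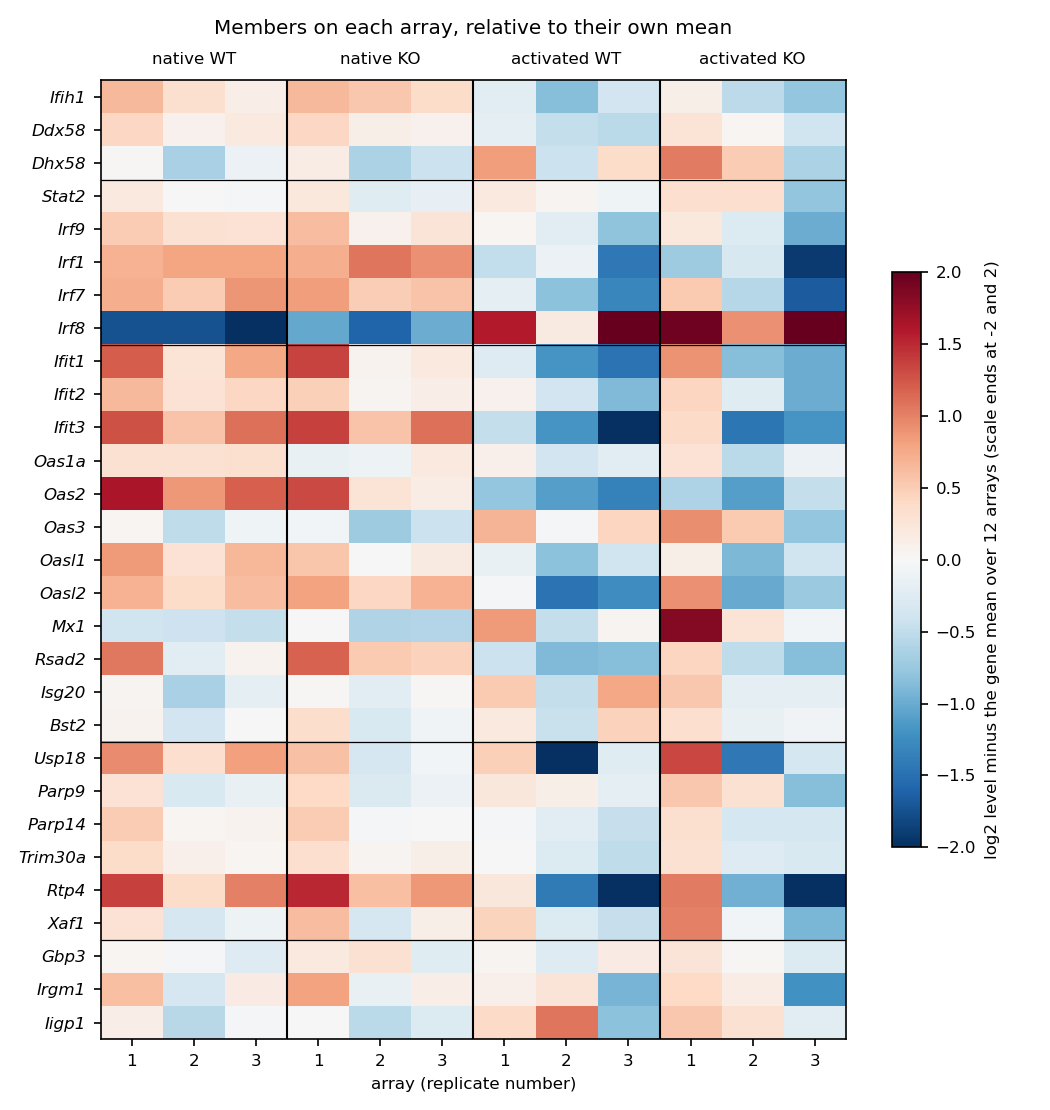
Level of each of the 29 members on each of the 12 arrays, as log2 level minus the mean of that gene over all arrays, with members ordered by role and the colour scale ending at -2 and 2. Array 1 is the reddest column of each group for most members, and Irf8 runs from blue in native to red in activated cells.

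KO and WT cells were then compared in each state. In native cells 0 of 29 members passed, beside 0% of all genes called (limma, Benjamini-Hochberg over 19938 genes). No member had an unadjusted p under 0.05, against 131 of all genes. The median difference, KO minus WT, was 0.01, against -0.02 over all genes, with 15 members above 0 and 14 below. Irf8 was the member highest in KO cells, at 0.64 ± 0.45 (95% interval -0.35 to 1.63). Its KO arrays all lay above its WT arrays, which 2.12% of all genes did. Oas2 was the lowest, at -0.65 ± 0.31 (-1.32 to 0.02), with overlapping groups, since KO array 1 at 8.24 exceeded 2 of the WT arrays. Rsad2 at 0.42 ± 0.36 and Isg20 at 0.20 ± 0.31 followed Irf8, and Usp18 at -0.63 ± 0.68 and Oasl1 at -0.37 ± 0.26 followed Oas2. The fit gives a gene the same variance in native and activated cells, so these errors also carry the spread of the activated arrays. The median range of a member within a group was 0.51 (WT) and 0.56 (KO) in native cells. In activated cells it was 0.9 and 1.38. A fit to the 6 native arrays alone also called 0 members. Between the KO and WT arrays of the same experiment, native Oas2 differed by -0.31, -0.59 and -1.05, Usp18 by -0.36, -0.67 and -0.87 and Oasl1 by -0.31, -0.30 and -0.49. KO was thus the lower in each native experiment for these members, and the fit with the experiment as a block called none of them. Since they were picked as the lowest by the same difference, their shared sign adds no evidence. Other members, Irf8, Rsad2 and Irf1 among them, were higher in KO in each native experiment. Isg20 lay at 9.54, 9.31 and 9.54 on native KO and 9.57, 8.88 and 9.33 on native WT arrays. The KO arrays lay wholly below the WT arrays for 1 member (4.92% of all genes), Oas1a, which was at background on all of them. For the GTPases the differences were 0.17 ± 0.18 for Gbp3, 0.12 ± 0.44 for Irgm1 and -0.11 ± 0.39 for Iigp1.

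Markers of other cells differed between the native groups. The mean level of 12 neutrophil markers was 8.02, 5.90 and 7.47 on the native KO arrays and 6.55, 5.79 and 5.47 on the native WT arrays, with 11, 2 and 9 against 9, 1 and 0 of them above background. The mean of 5 NK cell markers, all above background on all native arrays, was 8.39, 7.39 and 7.85 against 7.62, 6.94 and 7.03. That of 6 MHC class II genes was 7.67, 6.61 and 7.19 on the KO and 6.54, 6.85 and 6.30 on the WT arrays (median difference 0.71, 3 of 6 at an unadjusted p under 0.05). The 4 plasmacytoid dendritic cell markers had means of 6.60 to 6.96 against 6.5 to 6.59, the macrophage and dendritic cell list 6.22, 5.90 and 6.24 against 5.86, 5.93 and 5.70, and the B cell list 6.22, 5.92 and 5.95 against 6.02, 5.87 and 5.92. Lyz2, lysozyme of macrophages and neutrophils, lay at 9.62, 6.51 and 9.02 on the native KO and 7.03, 6.32 and 5.24 on the native WT arrays. No gene of these lists passed the adjusted test. Their part in the KO and WT differences of the members, Irf8 among them, was not tested.

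In activated cells 0 of 29 members passed, again beside 0% of all genes, and no member had an unadjusted p under 0.05, against 87 of all genes. The median difference was 0.11, against -0.01 over all genes, with 20 members above 0 and 9 below. Ifit1 at 0.65 ± 0.51 (95% interval -0.47 to 1.78), Oasl2 at 0.63 ± 0.46 and Rtp4 at 0.61 ± 0.76 were the members highest in KO cells. Irf1 at -0.30 ± 0.38, Isg20 at -0.23 ± 0.31 and Oas3 at -0.13 ± 0.37 were the lowest. Isg20 lay at 10.06, 9.33 and 9.32 on activated KO and 10.05, 9.04 and 10.30 on activated WT arrays, and Oas3 at 9.72, 9.30 and 8.01 against 9.46, 8.76 and 9.22. Both overlapped, and their lowest KO value was that of array 3 with the raised background. No member's KO and WT groups were apart, against 0.858% of all genes with KO above and 0.888% with KO below. The differences of the GTPases lay between -0.03 and 0.01, with standard errors of 0.18 to 0.44.

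The activated median depended on single arrays, and the native one lay between -0.169 without native KO array 1 and 0.101 without native WT array 1. The activated median was -0.173 without activated KO array 1, 0.0383 without activated WT array 2, 0.0484 without activated WT array 3, 0.207 without activated KO array 2, 0.301 without activated WT array 1 and 0.364 without activated KO array 3.

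Each KO array had a WT array of the same state whose description carries the same number, and the members were set side by side within these experiments. In native cells KO exceeded WT for 18, 14 and 10 of 29 members in replicates 1, 2 and 3 (62.1%, 48.3% and 34.5%), against 37.6%, 41.2% and 53.7% of all genes. The median differences of the members were 0.10, 0.00 and -0.07. In activated cells KO exceeded WT for 28, 20 and 11 members (96.6%, 69.0% and 37.9%), against 46.9%, 53.3% and 48.2% of all genes, with medians of 0.31, 0.29 and -0.10. The member that did not exceed WT in activated replicate 1 was Irf1. The largest gaps of that replicate were those of Ifit1 at 1.16, Mx1 at 0.98, Oasl2 at 0.94, Usp18, Rsad2 and Ifit3 at 0.86, and Rtp4 at 0.79. The direction of most members thus differed between the experiments. In replicate 1 of both states the KO and WT arrays also differed in Xist, at 5.26 against 10.7 (native) and 4.98 against 10.8 (activated). In activated replicate 3 the KO array had the raised background of 7.31, with 15 of 29 members above it. The part of either in these counts was not tested.

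**Figure D4:**
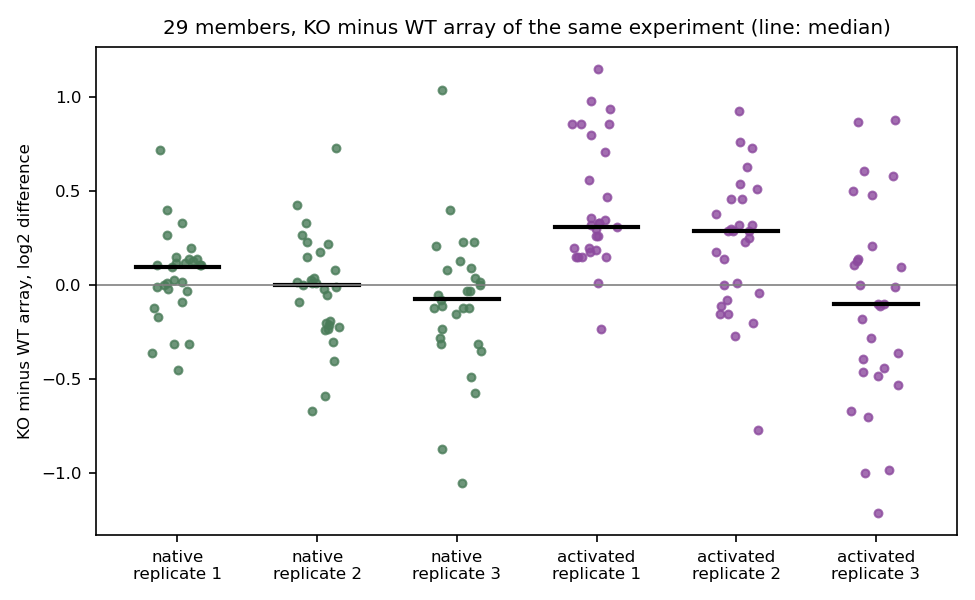
Log2 difference between the KO and the WT array of the same experiment for each of the 29 members, by state and replicate number, with the median as a black line and points spread sideways only for legibility. The cloud lies above 0 in activated replicate 1 (28 of 29 members) and is spread on both sides of 0 in native replicates 1 to 3 and activated replicate 3. In replicate 1 of both states Xist was low on the KO array only, and in activated replicate 3 the KO array had a raised background.

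Averaged over both states, 0 of 29 members passed, beside 0% of all genes, with 118 of all genes and no member at an unadjusted p under 0.05. The median was 0.03, and it lay between -0.115 without activated KO array 1 and 0.161 without activated KO array 3, below 0 also without native KO array 1 (-0.0349) or native WT array 2 (-0.0379). Irf8 was the highest at 0.52 ± 0.32 (limma, 95% interval -0.18 to 1.22). The interaction, which tests whether activation acted differently in KO and WT cells, was called for 0 of 29 members and 0% of all genes. Its median of 0.11 turned to -0.248 without activated KO array 1, -0.0294 without native WT array 1 and -0.0341 without native KO array 2, and was 0.392 without activated KO array 3 and 0.607 with array weights. In this test 1 member and 86 of all genes had an unadjusted p under 0.05. That member was Oas2, whose fall was smaller in KO than in WT cells by 0.99 ± 0.43 (limma, unadjusted p = 0.0418, adjusted p = 1), where activated WT levels sat at background. The largest interaction was that of Usp18, 1.10 ± 0.96. For Irf8 it was -0.23 ± 0.64 and for Irf1 -0.44 ± 0.53. The 95% intervals of the members in the KO and WT comparisons reached from -2.13 to 2.27 at their widest, those of Usp18 and Rtp4. Differences inside these intervals were not resolved by this fit. The native intervals also carry the spread of the activated arrays.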

How the data were processed

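The authors deposited log2 expression values, 35556 transcript clusters on each of 12 arrays, which came from RMA in Partek per the submitters' processing notes. Neither versions nor options were given in the labels or notes. RMA compresses differences close to background. Of the transcript clusters, 21789 carried 1 symbol, 1621 several and 12146 none in the platform annotation, and symbols were updated by Entrez identifier for 21698. The brightest transcript cluster was kept for the 999 genes with several, leaving 19938 genes, with no filter on low values.

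Group means were fitted over all 12 arrays with limma 3.58.1 in R 4.3.3 (lmFit, eBayes), checked on simulated data, and genes were called at a Benjamini-Hochberg adjusted p under 0.05. Errors are standard errors of that fit, and precision is limited by having 3 arrays per group. The variance of a gene was pooled over native and activated arrays. The members, lists and motifs were chosen with earlier results of these data known. Members given array by array were, by rule, those called for KO against WT or in the interaction, the largest called activation difference of each role, and the 3 highest and 3 lowest in KO minus WT of each state. Ddx58, Irf7 and Ifit3 were added after their values were seen, since they were called. Up to 4 genes of each other list, those with the smallest p on activation, and the interferon gamma and receptor genes were named.

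The titles number the arrays 1 to 3 in each group. Deviations from the group means were correlated over all genes between KO and WT arrays with the same number. The correlations were 0.58, 0.396 and 0.157 in native cells and 0.694, -0.017 and -0.013 in activated cells. The main fit, and the errors and intervals from it, were unpaired. Pairs entered only the differences within experiments and the alternative fits with a block. The alternatives were other scalings, row choice, a filter on dim genes, array weights, blocks and single arrays left out.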

Additional observations from a re-analysis of the deposited data

How the results depend on the processing

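The counts of members called for KO against WT in native cells, in activated cells and over both states, and in the interaction, were 0 under every alternative run, the replicate block and the block by experiment included. In the 6 native arrays with the block by experiment, 14 of all genes and 0 members were called. On activation in WT cells the count of 10 became 17 with the replicate block and ranged from 4 (without native WT array 1) to 11 (without activated WT array 1) when 1 array was left out; in KO cells the count of 5 became 12 with the replicate block and 8 with array weights, and ranged from 3 (without native KO array 1) to 12 (without activated KO array 1). Deviations of native and activated arrays with the same number in their titles correlated at 0.335, -0.139 and 0.264 in KO cells. In WT cells the correlations were 0.234, 0.009 and -0.103. Native and activated arrays carry different experiment numbers in their descriptions, so the replicate block joins arrays of different experiments. Whether the title numbers pair native with activated arrays in any other way is not settled. Of all genes, 4107 (WT) and 4002 (KO) were called on activation, 4498 and 4414 with the replicate block, 2965 without native WT array 1, 3203 without activated WT array 1, 2918 without native KO array 1 and 3272 without activated KO array 1. With array weights the KO median on activation turned to 0.0642 from -0.257, and 6930 (WT) and 6932 (KO) of all genes were called. Leaving out activated KO array 3 and activated WT array 2 and the block in 6 arrays were chosen after seeing the data. Of 3039 alternatives of 174 member values, 2803 kept their call, or had none and moved less than the standard error of the main fit. A further 144 had no call and moved more, 37 lost and 55 gained a call. Values with a call in either fit that changed sign numbered 0. Sign changes of values without a call were not counted. Signals near background on activated KO array 3 limit what can be seen of dim members there.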
